A study of Mus musculus with 9 samples.

Results

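Collagens are the triple-helical proteins of the extracellular matrix, and the genes described here are the rows of the mouse gene count table whose symbol is Col, a type number, the letter a and a chain number, with 1 gene of that form left out by the rule. They number 43 of the 32594 genes in the table, and 42 of them were among the 15873 genes with enough counts to be tested. The exception was Col6a4, whose highest level was 0.281 counts per 1000000 counts (CPM). The genes were grouped into 5 classes by the structures that their chains build, which are fibrillar, basement membrane, beaded filament, fibril-associated (FACIT) and other collagens.

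The RNA came from hindlimb skeletal muscle of FVB/N mice. There were 4 libraries of SMN delta 7 mice, called SMA, and 5 of wild type mice, called WT. SMN delta 7 is a mouse model of spinal muscular atrophy. As background, such mice lack the mouse Smn1 gene and carry human SMN2 and a transgene for SMN without exon 7. These alleles are not spelled out in the labels, which also give no age, sex or litter. The comparison asks how muscle RNA differed between SMA and WT mice. The labels do not say that each library came from its own animal. The p-values rest on the spread between these libraries, part of which may be technical.

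Collagen chains are made in the endoplasmic reticulum, where hydroxylases modify them before 3 chains wind into a helix. Fibrillar collagens are then trimmed outside the cell, assemble into fibrils and are cross-linked. In muscle, fibrils of types I and III fill the connective tissue between fibres, bundles and tendon, and type V collagen starts and limits fibril growth. Type IV forms the sheet of the basement membrane around each fibre and capillary, and type VI forms beaded filaments next to it. FACIT collagens sit on the surface of fibrils, and other types are membrane proteins, anchoring fibrils or network formers. Most fibrillar chains in muscle are made by fibroblasts and tendon cells, and type IV chains also by muscle fibres and endothelium.

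Sequences before the RefSeq gene starts are shown for Col1a2 and Col3a1, abundant fibrillar genes. For the divergent pair Col4a1 and Col4a2, whose chains join the same helix, a stretch around both starts is shown. RefSeq windows of 250 bases before to 50 bases after the start (build GRCm38.p6) were matched by symbol for 34 of the 43 genes. The 250 bases before the start of Col1a2 lie at chr6:4505368-4505617 and those of Col3a1 at chr1:45311288-45311537, both on the + strand. Capitals mark the CCAAT box, written CCAAT, the GC box, written GGGCGG, and the TATA box, written TATAAA, each searched on both strands.
Col1a2: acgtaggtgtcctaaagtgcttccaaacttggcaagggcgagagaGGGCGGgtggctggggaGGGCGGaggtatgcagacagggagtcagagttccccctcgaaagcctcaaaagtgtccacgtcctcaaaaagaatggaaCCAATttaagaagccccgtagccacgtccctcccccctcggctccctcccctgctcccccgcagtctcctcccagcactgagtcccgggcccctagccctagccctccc
Col3a1: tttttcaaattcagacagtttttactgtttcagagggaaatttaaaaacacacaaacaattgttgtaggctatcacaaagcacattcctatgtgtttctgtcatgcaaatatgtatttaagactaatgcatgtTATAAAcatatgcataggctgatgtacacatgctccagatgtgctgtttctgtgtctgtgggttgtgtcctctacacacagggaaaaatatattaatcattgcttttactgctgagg
The Col1a2 stretch holds CCAAT at base 142 and GGGCGG at bases 46 and 63, and the Col3a1 stretch holds TATAAA at base 134. Over the whole windows, CCAAT or its reverse ATTGG was found for 13 of 34 collagen genes and in 37.4% of all 32851 windows. GGGCGG or CCGCCC was found for 22 of 34 collagen genes and in 35.7% of all windows, and TATAAA or TTTATA for 4 of 34 and in 13.6%. The collagen values count genes and the others count windows, so these shares are not like for like. A match of letters is a description of the window and no site of binding.

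Col4a1 and Col4a2 lie head to head, and their first exons share 22 bases on opposite strands. The stretch around both starts, chr8:11312797-11312834 read on the + strand, is printed with the shared 22 bases in capitals.
Col4a1 and Col4a2: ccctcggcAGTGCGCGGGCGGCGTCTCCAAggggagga
The Col4a2 transcript runs rightward from the first capital, and the Col4a1 transcript runs leftward from the last one. The stretch is 76.3% G and C and holds 1 GGGCGG.

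The libraries held 24917665 to 35087722 counts each. Smn1, the gene that the model lacks, was at 1.80, 2.24, 1.40 and 2.72 CPM in SMA libraries 1 to 4, against 13.1, 13.5, 13.8, 11.1 and 13.3 CPM in WT libraries 1 to 5. Every SMA library was below every WT library, and the log2 fold change was -2.66 ± 0.17 (standard error, SE), with an adjusted p of 2.88e-07 in edgeR's quasi-likelihood test. The labelled tissue was matched by all 6 muscle fibre markers, which summed to 68300 to 82200 CPM in SMA and 133000 to 188000 CPM in WT libraries. All 6 were lower in SMA muscle at an adjusted p under 0.05 in edgeR, beside 27.2% of all genes. On the second principal component, SMA library 3 lay far from SMA libraries 1, 2 and 4. The Y-linked genes Ddx3y, Eif2s3y, Kdm5d and Uty together held more than 1 per 1000000 of the counts in 1 of 4 SMA and 4 of 5 WT libraries.

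Of the 42 tested collagen genes, 17 were lower and 8 were higher in SMA muscle at an adjusted p under 0.05 (edgeR's quasi-likelihood test, Benjamini-Hochberg over 15873 genes), and 17 did not pass. Of all genes tested, 54.9% passed at this threshold, 27.2% lower and 27.7% higher. Of the collagen genes, 40.5% were lower and 19% higher. Of them, 7 were at least 2-fold lower and passed, or 16.7%, beside 6.28% of all genes. Every SMA library lay below every WT library for 12 collagen genes, or 28.6%, beside 21.7% of all genes. Every SMA library lay above every WT library for 7, or 16.7%, beside 22.6% of all genes. The median log2 fold change was -0.115 over the 42 collagen genes and 0.00596 over all genes. Leaving out WT libraries 1 and 2 together, a choice made after seeing the data, left 12 collagen genes lower and 8 higher of 42. Of the 16151 genes then tested, 3711 were lower and 3840 higher. The median log2 fold change of the collagen genes was then 0.00868.

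**Figure D1:**
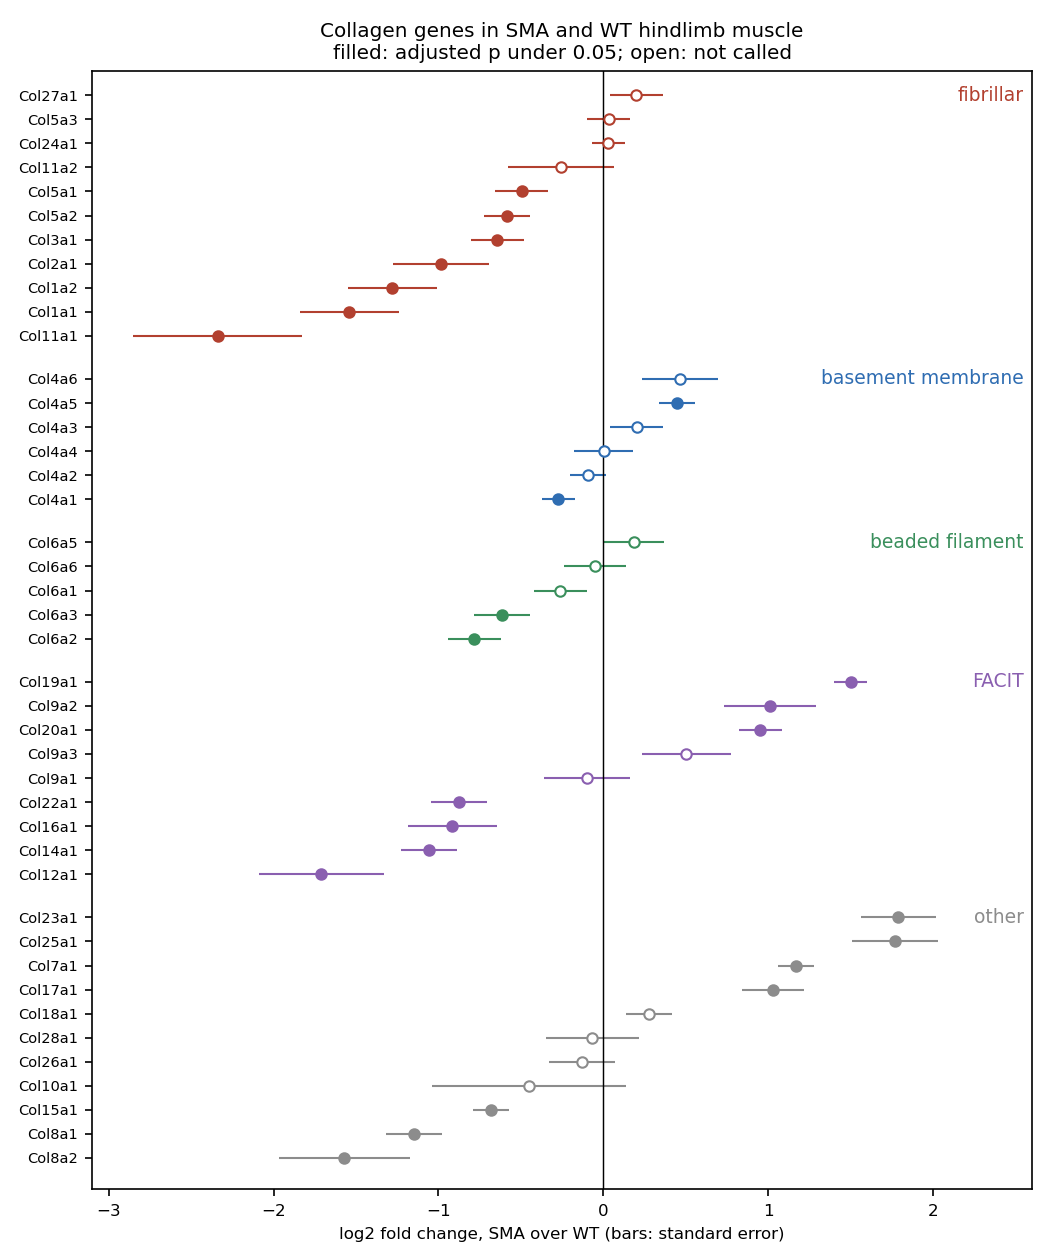
Log2 fold change, SMA over WT, of the 42 tested collagen genes by class (x axis; bars are standard errors; filled points passed at an adjusted p under 0.05, open points did not). The 7 filled fibrillar points all lie left of 0, and filled FACIT and other points lie on both sides.

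The 11 fibrillar genes held the largest group of falls. In this class, 7 were lower (63.6%, beside 27.2% of all genes), none was higher and 4 did not pass. The median log2 fold change was -0.585. These fibril formers took most of the collagen counts in every library, without allowance for gene length. The 3 chains of types I and III were their most abundant members. Col1a1, the α1 chain of type I collagen, lies at chr11:94936224-94953042 on the + strand (mm10, GENCODE M21). It was at 563, 535, 326 and 518 CPM in SMA libraries 1 to 4, against 2170, 1860, 1390, 877 and 753 CPM in WT libraries 1 to 5. The groups did not overlap, and the WT libraries alone spanned 2.88-fold. Its log2 fold change was -1.54 ± 0.30 (SE, adjusted p = 0.00105 in edgeR). Col1a2, which pairs with it in the type I helix, was at 857, 796, 506 and 862 CPM in SMA, against 2550, 2490, 1760, 1350 and 1030 CPM in WT libraries, again without overlap. It fell by 1.28 ± 0.27 on the log2 scale (SE, adjusted p = 0.00152 in edgeR). Col3a1, the single chain of type III collagen, fell less, by 0.644 ± 0.16 on the log2 scale (SE, adjusted p = 0.00533 in edgeR). It was at 1710, 1740, 1130 and 1690 CPM in SMA and at 2630, 2940, 2590, 2250 and 1850 CPM in WT libraries, also without overlap. SMA library 3 was the lowest of its group for all 3 genes and WT library 5 the lowest of its own.

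**Figure D2:**
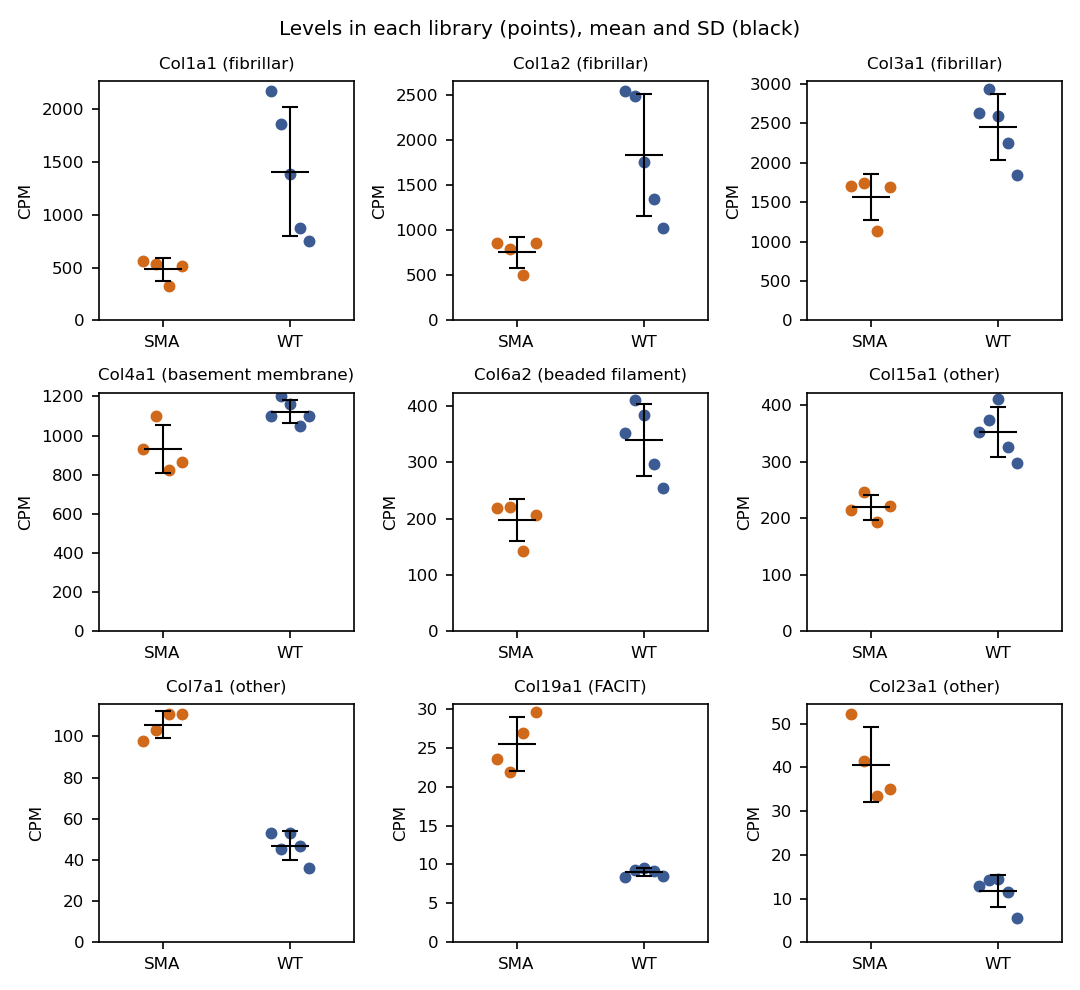
CPM in each library (points) with mean and SD (black) for 9 collagen genes, SMA left and WT right in each panel. Col1a1, Col1a2 and Col3a1 were lower in every SMA than in any WT library, and Col7a1, Col19a1 and Col23a1 were higher.

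The minor fibrillar chains of types V and XI moved unequally. Col5a1 and Col5a2, chains of the type V helix that starts type I fibrils, had log2 fold changes of -0.495 ± 0.16 and -0.585 ± 0.14 (SE, adjusted p = 0.0206 and 0.00352 in edgeR). Col5a1 did not pass without SMA library 3 (adjusted p = 0.0512) or without WT libraries 1 and 2 (adjusted p = 0.135). Col5a3, the third type V chain, averaged 161 ± 15.7 CPM in SMA and 158 ± 26.9 CPM in WT muscle (SD, n = 4 and 5), a log2 fold change of 0.03 ± 0.13 (SE) that did not pass (adjusted p = 0.852 in edgeR). Col11a1, a type XI chain best known from cartilage fibrils, fell by 2.34 ± 0.51 on the log2 scale (SE, adjusted p = 0.00212 in edgeR). Its SMA libraries lay between 4.42 and 6.47 CPM and its WT libraries between 9.14 and 55.8 CPM, with WT libraries 1 and 2 the highest. Without those libraries its log2 fold change was -1.22 (adjusted p = 0.00301 in edgeR). Col2a1, the main fibril chain of cartilage, had a log2 fold change of -0.986 ± 0.29 (SE, adjusted p = 0.0123 in edgeR), with overlapping groups and an adjusted p of 0.0648 without WT libraries 1 and 2. Col11a2, Col24a1 and Col27a1 had log2 fold changes of -0.257, 0.03 and 0.20 and did not pass (adjusted p = 0.521, 0.819 and 0.313 in edgeR).

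The fibrillar falls stood beside lower levels of markers of other connective tissues. All 7 tendon markers were lower, and their summed level was 69.5 to 127 CPM in SMA and 134 to 299 CPM in WT libraries. Scx, the transcription factor that marks tendon cells, averaged 2.57 ± 0.45 CPM in SMA and 7.73 ± 1.33 CPM in WT muscle (SD, n = 4 and 5), without overlap. Bone markers summed to 5.28 to 6.96 CPM in SMA and 10.8 to 186 CPM in WT libraries, with 186 CPM in WT library 1 and 66.7 CPM in WT library 2, and 4 of the 5 tested were lower. Cartilage markers summed to 2.35 to 5.67 CPM in SMA and 4.71 to 13.3 CPM in WT libraries, and 2 of the 3 tested were lower. Matn1, a cartilage matrix protein, was at 0 in 3 SMA and 3 WT libraries. Fibroblast markers summed to 572 to 637 CPM in SMA and 727 to 1040 CPM in WT libraries, with 5 of 8 lower and 1 higher. The higher one was Pdgfra, the growth factor receptor that marks muscle fibroblasts, at 47.6 ± 3.41 CPM in SMA and 37.7 ± 5.89 CPM in WT muscle (SD, n = 4 and 5; log2 fold change 0.34 ± 0.11, SE; adjusted p = 0.0204 in edgeR). Beside 27.2% lower and 27.7% higher among all genes, macrophage and fat markers had 3 of 5 lower each (60%). Mural cell markers had 2 of 5 lower (40%), and satellite cell markers 1 of 4 lower (25%) and 2 higher (50%). The part of these tissues in the collagen changes was not tested. In bulk RNA, fewer cells of a type and less RNA per cell cannot be told apart. Without WT libraries 1 and 2, the log2 fold changes of Col1a1, Col1a2 and Col3a1 were -1.06, -0.88 and -0.51, and all 3 passed (adjusted p = 0.00531, 0.0091 and 0.0371 in edgeR).

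The 6 basement membrane genes had a median log2 fold change of 0.10. Of them 1 was lower and 1 higher, or 16.7% each, beside 27.2% and 27.7% of all genes, and 4 did not pass. Col4a1 and Col4a2, the chains found in nearly all basement membranes, were abundant. Col4a1 was at 933, 1100, 825 and 863 CPM in SMA, against 1100, 1200, 1160, 1050 and 1100 CPM in WT libraries, with SMA library 2 within the WT range. Its log2 fold change was -0.274 ± 0.10 (SE, adjusted p = 0.0398 in edgeR). The call was lost without any 1 of WT libraries 1, 2 and 3 or SMA libraries 1, 3 and 4, with adjusted p from 0.0602 to 0.112. Under scaling to total counts the log2 fold change of Col4a1 was -0.045. Col4a2 was at 613, 701, 524 and 582 CPM in SMA and at 650, 684, 708, 589 and 590 CPM in WT libraries. The groups overlapped and its log2 fold change of -0.091 ± 0.11 (SE) did not pass (adjusted p = 0.485 in edgeR).

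Col4a5 and Col4a6, another head-to-head pair 1308 bases apart on the X chromosome, encode minor type IV chains. Col4a5 was at 11.8, 12.5, 9.48 and 12 CPM in SMA, against 6.95, 9.19, 8.23, 8.56 and 9.04 CPM in WT libraries. It rose by 0.446 ± 0.11 on the log2 scale without overlap (SE, adjusted p = 0.00511 in edgeR). Col4a6 was rarer, at 1.55 ± 0.27 CPM in SMA and 1.12 ± 0.29 CPM in WT muscle (SD, n = 4 and 5), and its log2 fold change of 0.466 did not pass (adjusted p = 0.0992 in edgeR). It passed without WT library 4 (adjusted p = 0.0334). Col4a3 and Col4a4, best known from kidney glomeruli and 71 bases apart on chromosome 1, averaged 3.87 and 2.27 CPM in SMA and 3.35 and 2.27 CPM in WT muscle. Their log2 fold changes of 0.20 and 0.0015 did not pass (adjusted p = 0.301 and 0.995 in edgeR). Endothelial markers, from cells that also make type IV chains, summed to 515 to 611 CPM in SMA and 542 to 687 CPM in WT libraries. Of these markers 2 of 6 were lower, or 33.3%, which is near the 27.2% of all genes.

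Type VI collagen, the beaded filament of the muscle fibre surface, fell in part. Of 5 tested beaded filament genes 2 were lower (40%) and none was higher, beside 27.2% and 27.7% of all genes. Mutations of COL6A1, COL6A2 and COL6A3 cause muscle disease in people. Col6a2 was at 219, 221, 142 and 206 CPM in SMA, against 351, 410, 384, 297 and 254 CPM in WT libraries, without overlap. Its log2 fold change was -0.783 ± 0.16 (SE, adjusted p = 0.00159 in edgeR). Col6a3, the longest chain, fell by 0.616 ± 0.17 on the log2 scale (SE, adjusted p = 0.00963 in edgeR). It was at 169, 113, 117 and 210 CPM in SMA and at 240, 263, 249, 213 and 200 CPM in WT libraries, and SMA library 4 lay within the WT range. Col6a1 was at 324, 315, 230 and 301 CPM in SMA and at 364, 427, 393, 323 and 245 CPM in WT libraries, and its log2 fold change of -0.26 ± 0.16 (SE) did not pass (adjusted p = 0.177 in edgeR). WT library 5 was the lowest WT library, and without it Col6a1 passed at a log2 fold change of -0.365 (adjusted p = 0.0264). Col6a5 and Col6a6, tandem genes on chromosome 9 for chains that can take the place of the α3 chain, averaged 3.5 and 24.0 CPM in SMA and 3.09 and 24.8 CPM in WT muscle. Their log2 fold changes of 0.185 and -0.05 did not pass (adjusted p = 0.415 and 0.841 in edgeR).

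FACIT collagens moved in both directions, with 4 of 9 lower (44.4%) and 3 higher (33.3%), beside 27.2% and 27.7% of all genes. Of the members that fell, Col12a1, Col14a1 and Col22a1 are known from tendon and its border with muscle. Col12a1, whose loss weakens muscle in mice and people, was at 18.4, 18, 9.87 and 20.7 CPM in SMA, against 87.2, 90.0, 41.8, 30.4 and 25.3 CPM in WT libraries. It fell by 1.71 ± 0.38 on the log2 scale without overlap (SE, adjusted p = 0.00255 in edgeR). Without WT libraries 1 and 2 its log2 fold change was -0.961 (adjusted p = 0.00914). Col14a1, a relative that regulates fibril width in tendon, was at 33.8, 36.6, 26.9 and 33.0 CPM in SMA and at 66.2, 90.1, 71.0, 68.2 and 43.0 CPM in WT libraries. Its log2 fold change was -1.06 ± 0.17 (SE, adjusted p = 0.000301 in edgeR). Col22a1, a collagen of the muscle-tendon junction, averaged 23.9 ± 1.61 CPM in SMA and 44.0 ± 11.4 CPM in WT muscle (SD, n = 4 and 5) without overlap, with a log2 fold change of -0.878 ± 0.17 (SE, adjusted p = 0.00102 in edgeR). Col16a1, a fibril-associated chain of skin and cartilage, was at 41.8, 39.4, 34.8 and 40.0 CPM in SMA and at 110, 105, 61.9, 54.0 and 36.6 CPM in WT libraries. The groups overlapped through WT library 5. Its log2 fold change was -0.915 ± 0.27 (SE, adjusted p = 0.0127 in edgeR) with all libraries and -0.385 (adjusted p = 0.07) without WT libraries 1 and 2.

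Col19a1 had the lowest adjusted p of all collagen genes. It lies at chr1:24261890-24587472 on the - strand (mm10), and the chain is needed for normal muscle of the oesophagus in mice. It was at 23.5, 21.9, 26.9 and 29.6 CPM in SMA, against 8.4, 9.32, 9.60, 9.16 and 8.51 CPM in WT libraries. It rose by 1.5 ± 0.099 on the log2 scale without overlap (SE, adjusted p = 3.74e-07 in edgeR). Its neighbour Col9a1, which lies 9.21 kb away on chromosome 1 on the opposite strand, was at most 1.15 CPM in every library and had a log2 fold change of -0.098 that did not pass (adjusted p = 0.772 in edgeR). Col20a1 was at 36.4, 34.4, 32.0 and 31.0 CPM in SMA and at 17.3, 19.8, 16.0, 20.7 and 12.5 CPM in WT libraries, and it rose by 0.951 ± 0.13 on the log2 scale (SE, adjusted p = 6.77e-05 in edgeR). Col9a2, a type IX chain of cartilage, averaged 4.84 ± 1.74 CPM in SMA and 2.40 ± 0.75 CPM in WT muscle (SD, n = 4 and 5), and rose by 1.01 ± 0.28 on the log2 scale with overlapping groups (SE, adjusted p = 0.00837 in edgeR). Without WT library 5 and SMA library 3 its log2 fold change was 0.59 (adjusted p = 0.014). Col9a3, the third type IX chain, had a log2 fold change of 0.50 that did not pass (adjusted p = 0.138 in edgeR), and 6.07% of its exon length overlaps Tcfl5 on the opposite strand.

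The other collagens held the largest rises among collagen genes. Of 11, 4 were higher (36.4%) and 3 lower (27.3%), beside 27.7% and 27.2% of all genes, and 4 did not pass. Col23a1, a membrane collagen that is shed from the cell surface, lies at chr11:51289920-51583918 on the + strand (mm10). It was at 52.3, 41.6, 33.5 and 35.1 CPM in SMA, against 12.8, 14.3, 14.5, 11.5 and 5.60 CPM in WT libraries. It rose by 1.79 ± 0.23 on the log2 scale (SE, adjusted p = 4.66e-05 in edgeR). Col25a1, a membrane collagen that developing mouse muscle needs for motor axons to enter it, averaged 5.14 ± 0.92 CPM in SMA and 1.5 ± 0.62 CPM in WT muscle (SD, n = 4 and 5). It rose by 1.77 ± 0.26 on the log2 scale without overlap (SE, adjusted p = 0.000135 in edgeR). Col7a1, the chain of the anchoring fibrils of skin, was at 97.6, 103, 111 and 111 CPM in SMA and at 53.2, 45.2, 53.2, 47.0 and 36.3 CPM in WT libraries. It rose by 1.17 ± 0.11 on the log2 scale (SE, adjusted p = 3.65e-06 in edgeR). Col17a1, the hemidesmosome collagen of epithelia, averaged 5.96 ± 0.93 CPM in SMA and 2.91 ± 0.72 CPM in WT muscle (SD, n = 4 and 5), a rise of 1.03 ± 0.19 on the log2 scale (SE, adjusted p = 0.000625 in edgeR). The 4 genes did not overlap between the groups.

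Markers of skin and nerve are given beside these rises. Skin keratins summed to 5.27 to 8.65 CPM in SMA and 4.84 to 19.0 CPM in WT libraries, and none of the 3 tested passed. Krt1, a keratin of the upper epidermis, was at 0 in 3 of 4 SMA libraries and 1 of 5 WT libraries. Mbp, a myelin protein of Schwann cells, averaged 314 ± 114 CPM in SMA and 99.3 ± 40.4 CPM in WT muscle (SD, n = 4 and 5; log2 fold change 1.66 ± 0.30, SE; adjusted p = 0.000535 in edgeR). Sox10, also a marker of these cells, had a log2 fold change of 1.32 (adjusted p = 8.39e-05 in edgeR), and S100b had 0.015 and did not pass (adjusted p = 0.959). The part of nerve in the collagen rises was not tested. Col28a1, a collagen found around Schwann cells in mice, averaged 0.98 ± 0.28 CPM in SMA and 1.03 ± 0.31 CPM in WT muscle (SD, n = 4 and 5). This log2 fold change of -0.066 did not pass (adjusted p = 0.857 in edgeR).

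Col15a1 and Col18a1, relatives that carry sugar chains at basement membranes, were the most abundant of these genes along with Col7a1. Mice without Col15a1 have a mild muscle disease. Col15a1 was at 214, 246, 194 and 222 CPM in SMA, against 352, 373, 411, 326 and 297 CPM in WT libraries, and fell by 0.682 ± 0.11 on the log2 scale without overlap (SE, adjusted p = 0.000269 in edgeR). Col18a1, the source of endostatin, was at 74.6, 80.7, 50.6 and 72.5 CPM in SMA and at 60.0, 62.3, 65.1, 56.3 and 43.4 CPM in WT libraries. Its log2 fold change of 0.28 ± 0.14 (SE) did not pass (adjusted p = 0.117 in edgeR). It did pass without SMA library 3, the lowest of its group, at 0.40 (adjusted p = 0.0108). Col8a1 and Col8a2, network collagens of vessel walls and the cornea, had log2 fold changes of -1.15 ± 0.17 and -1.57 ± 0.40 (SE, adjusted p = 0.000158 and 0.00539 in edgeR), with no overlap for either. Without WT libraries 1 and 2 the value of Col8a2 was -0.73 (adjusted p = 0.0245). Col10a1, of growth plate cartilage, and Col26a1 had log2 fold changes of -0.45 and -0.13 and did not pass (adjusted p = 0.54 and 0.593 in edgeR).

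**Figure D3:**
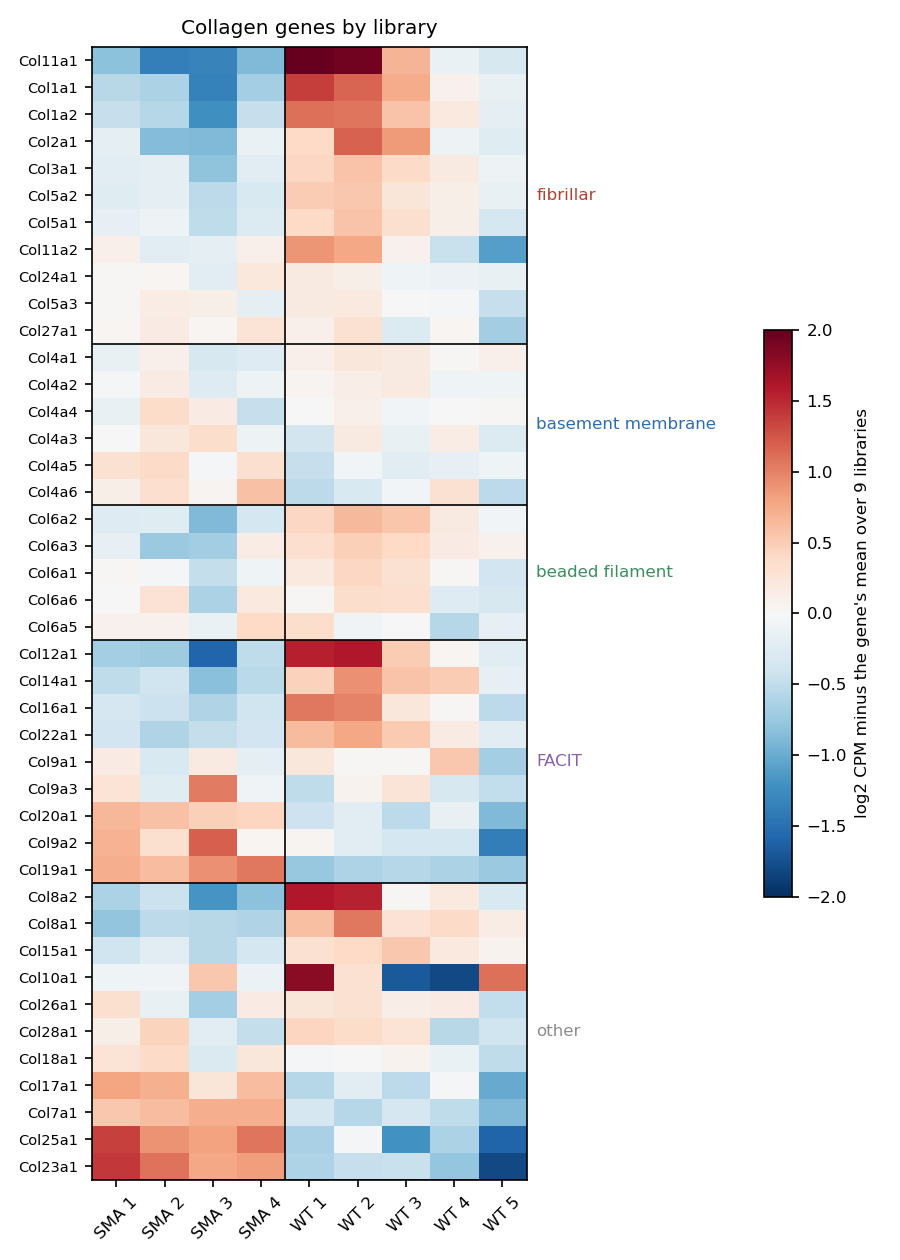
Log2 CPM of each tested collagen gene minus its mean over the 9 libraries (rows, by class; columns are libraries, SMA left of WT; the colours saturate at 2 units). In each fibrillar row the highest WT library is WT library 1 or 2 and the lowest is WT library 5.

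The libraries of a group shared an order across genes. WT library 1 or WT library 2 was the highest WT library for 31 of 42 collagen genes and for 11 of 11 fibrillar genes. WT library 5 was the lowest WT library for 31 of 42 and for 11 of 11 fibrillar genes. SMA library 3 was the lowest SMA library for 26 of 42, among them 8 fibrillar genes. The median coefficient of variation over collagen genes was 16.1% in SMA and 23.6% in WT libraries, and over fibrillar genes it was 11.8% in SMA and 24.8% in WT libraries. For the 6 basement membrane genes the order was the other way, with 13.5% in SMA and 9.54% in WT libraries.

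The make-up of collagen RNA was compared as shares of counts, which are given without a test because they sum over the chosen genes. All collagen genes together took 0.687% ± 0.073 of the counts in SMA and 0.942% ± 0.257 in WT libraries (SD, n = 4 and 5). The shares were 0.714%, 0.74%, 0.58% and 0.715% in SMA and 1.09%, 1.26%, 0.948%, 0.815% and 0.593% in WT libraries, so that the groups overlapped at WT library 5. Fibrillar genes took 56.0%, 53.9%, 50.7% and 56.2% of the collagen counts in SMA libraries, against 69.7%, 67.7%, 63.4%, 61.8% and 58.2% in WT libraries. All SMA libraries were below all WT libraries. Col1a1, Col1a2 and Col3a1 alone made up 44.2% ± 3.43 in SMA and 56.1% ± 4.44 in WT libraries (SD, n = 4 and 5), without overlap.

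Mean shares of the 4 remaining classes were higher in SMA than in WT libraries. The class shares add up to the whole, so a lower fibrillar share makes the rest together higher, whatever their levels. The median log2 fold changes of these classes were 0.102 for basement membrane, -0.26 for beaded filament, -0.0977 for FACIT and -0.0664 for other collagens. Basement membrane genes took 24.8% ± 2.45 of collagen counts in SMA and 18.4% ± 3.62 in WT libraries (SD, n = 4 and 5), with overlap through WT library 5 at 23.8%. The other collagens took 7.51% ± 0.56 in SMA and 5.17% ± 0.69 in WT libraries without overlap. Beaded filament genes took 10.6% ± 0.71 in SMA and 9.59% ± 0.86 in WT libraries, and FACIT genes 2.88% ± 0.32 in SMA and 2.66% ± 0.35 in WT libraries, both with overlap.

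**Figure D4:**
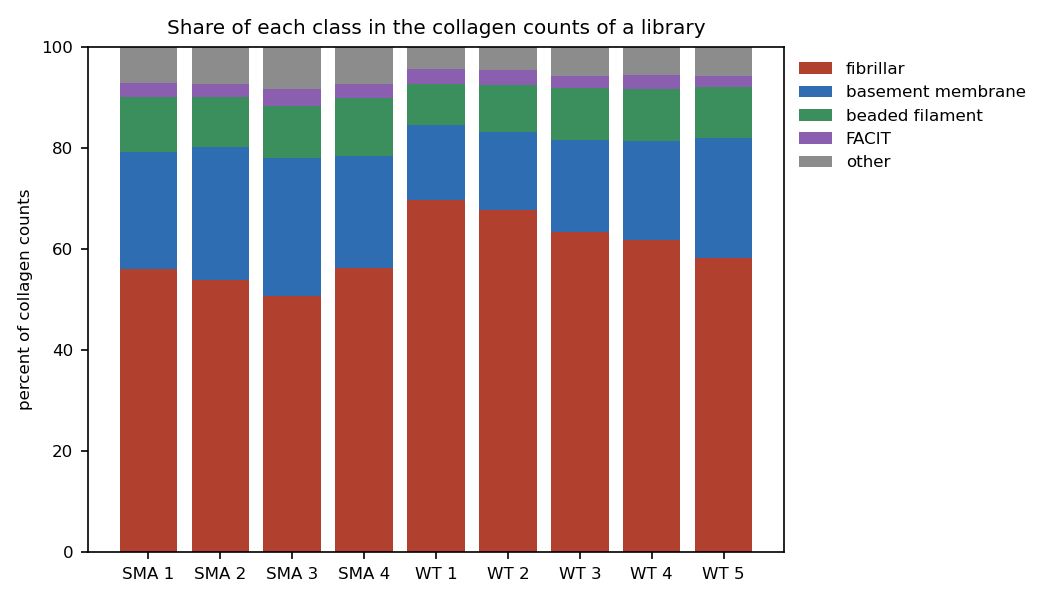
Percent of the collagen counts of each library taken by each class (stacked bars; SMA libraries left of WT libraries). The fibrillar part was 50.7% to 56.2% in SMA and 58.2% to 69.7% in WT libraries.

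Levels were also set per kilobase of exon, as a rough allowance for gene length. The length is that of all annotated exons of a gene merged, which can exceed the length of its main transcript. It was 6563 bases for Col1a1 and 12426 bases for Col1a2, so the order of genes below depends on this choice. Col3a1 was the highest collagen gene in both groups, at 160 ± 29.9 CPM per kilobase in SMA and 250 ± 42.4 CPM per kilobase in WT muscle (SD, n = 4 and 5). In SMA muscle Col4a1 was next at 125 ± 16.1 CPM per kilobase, then Col4a2 at 91.4 ± 11.1, Col1a1 at 74.0 ± 16.4, Col6a1 at 66.8 ± 9.71 and Col1a2 at 60.8 ± 13.6. In WT muscle Col1a1 was next at 215 ± 93.3 CPM per kilobase, then Col4a1 at 150 ± 7.84, Col1a2 at 148 ± 54.4, Col4a2 at 97.3 ± 8.16 and Col6a1 at 80.0 ± 16.0. In SMA muscle Col1a1, Col6a1 and Col1a2 differed by less than the SD of Col1a1, and in WT muscle Col1a1, Col4a1 and Col1a2 did so as well. Col1a1 ranked 4 in SMA and 2 in WT muscle, and Col4a1 ranked 2 in SMA and 3 in WT muscle. Among the lowest tested genes were Col10a1, Col9a1 and Col4a6, at 0.124, 0.154 and 0.194 CPM per kilobase in SMA and 0.174, 0.165 and 0.14 CPM per kilobase in WT muscle.

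Ratios of 2 genes within a library do not depend on how libraries are scaled, and 7 were compared by a two-sided exact permutation test over all divisions of the 9 libraries into groups of 4 and 5. After Benjamini-Hochberg adjustment over the 7, 5 passed. The Col6a1 to Col6a2 count ratio, for chains that join the same helix, was 1.48, 1.43, 1.62 and 1.46 in SMA, against 1.04, 1.04, 1.02, 1.09 and 0.967 in WT libraries (exact p = 0.00794, the smallest that the divisions allow; adjusted p = 0.037). The Col4a1 to Col4a2 ratio was 1.52, 1.57, 1.57 and 1.48 in SMA and 1.69, 1.76, 1.64, 1.78 and 1.87 in WT libraries (exact p = 0.0159, adjusted p = 0.037). Both ratios were without overlap, in opposite directions.

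The Col3a1 to Col1a1 ratio was 3.25 ± 0.17 in SMA and 1.93 ± 0.58 in WT libraries (SD, n = 4 and 5; exact permutation p = 0.0238, adjusted p = 0.0417), higher in 4 of 4 SMA libraries than in any WT library. The Col11a1 to Col5a1 ratio was 0.0265 ± 0.0051 in SMA and 0.0881 ± 0.0574 in WT libraries (SD, n = 4 and 5; exact permutation p = 0.0159, adjusted p = 0.037), lower in 4 of 4 SMA libraries than in any WT library. The Col1a1 to Col1a2 ratio was 0.644 ± 0.030 in SMA and 0.753 ± 0.074 in WT libraries with overlap (SD, n = 4 and 5; exact permutation p = 0.0317, adjusted p = 0.0444). The Col5a1 to Col5a2 ratio was 1.40 ± 0.033 in SMA and 1.31 ± 0.099 in WT libraries and did not pass (exact permutation p = 0.167, adjusted p = 0.167). Col6a3 to Col6a1 was 0.521 ± 0.139 in SMA and 0.677 ± 0.080 in WT libraries and did not pass either (exact permutation p = 0.0635, adjusted p = 0.0741). With any 1 SMA library left out, no exact p can be below 0.0179, and the 5 calls were lost (adjusted p from 0.0625 to 0.104). The log2 difference of Col6a1 to Col6a2 was then 0.50 to 0.56, beside 0.54 with all libraries, and that of Col4a1 to Col4a2 was -0.198 to -0.169, beside -0.186. Leaving out WT library 1, 2, 3 or 5 also ended the call on Col1a1 to Col1a2 (adjusted p = 0.1 to 0.12).

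**Figure D5:**
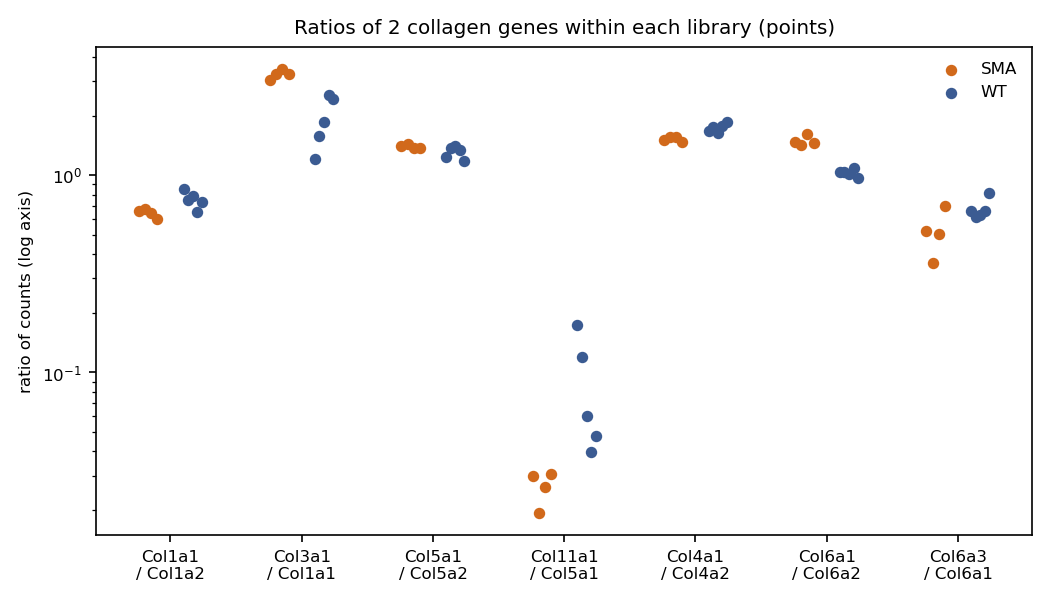
Count ratio of 2 collagen genes in each library (points; log axis; SMA left of WT for each ratio). SMA points lie above all WT points for Col3a1/Col1a1 and Col6a1/Col6a2 and below them for Col11a1/Col5a1 and Col4a1/Col4a2.

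Genes that make, trim, cross-link, clear and sense collagen were examined in 6 lists. Of 59 listed genes 55 were tested, and 31 were lower, 6 were higher and 18 did not pass, with a median log2 fold change of -0.426. Of the tested genes 56.4% were lower and 10.9% higher, beside 27.2% and 27.7% of all genes. Without WT libraries 1 and 2, a choice made after seeing the data, 22 were lower and 8 higher of 56 tested, with a median of -0.298. Of all 16151 genes then tested, 3711 were lower and 3840 higher. The list of hydroxylation and glycosylation, the steps on new chains, had 9 of 15 lower and 1 higher. P4ha1, the catalytic subunit of prolyl 4-hydroxylase, was at 14.9, 15.3, 17.3 and 13.2 CPM in SMA, against 35.4, 35.6, 33.6, 29.4 and 32.1 CPM in WT libraries. It fell by 1.13 ± 0.093 on the log2 scale without overlap (SE, adjusted p = 1.74e-06 in edgeR), and its paralogue P4ha2 by 0.797 ± 0.099 (SE, adjusted p = 4.07e-05).

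Of the 8 genes of folding and secretion, 4 were lower (50%) and 2 were higher (25%), beside 27.2% and 27.7% of all genes. Serpinh1, the collagen chaperone HSP47, was at 106, 107, 109 and 104 CPM in SMA, against 269, 286, 247, 235 and 218 CPM in WT libraries. It fell by 1.23 ± 0.092 on the log2 scale (SE, adjusted p = 8.54e-07 in edgeR). Its SMA libraries lay close together, with an SD of 2.27 CPM, and SMA library 3 was not the lowest. Fkbp14, a prolyl isomerase whose loss causes a connective tissue and muscle disease in people, fell by 1.09 ± 0.085 on the log2 scale (SE, adjusted p = 1.13e-06 in edgeR).

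Propeptide cleavage, which frees fibrillar chains for assembly, had 5 of 7 lower (71.4%) and 1 higher (14.3%), beside 27.2% and 27.7% of all genes. Adamts3, a procollagen protease, averaged 0.828 ± 0.041 CPM in SMA and 3.56 ± 0.82 CPM in WT muscle (SD, n = 4 and 5), a log2 fold change of -2.10 ± 0.21 (SE, adjusted p = 6.74e-06 in edgeR). Pcolce, which enhances cleavage of the other end, fell by 0.98 ± 0.12 on the log2 scale (SE, adjusted p = 4.27e-05 in edgeR). Cross-linking enzymes had 4 of 6 lower (66.7%) and none higher. Without WT libraries 1 and 2 they had 2 of 6 lower, beside 3711 of all 16151 genes then tested. Loxl1 and Loxl2, of the lysyl oxidase family, averaged 24.0 ± 1.68 and 40.1 ± 5.41 CPM in SMA and 48.7 ± 9.56 and 73.0 ± 13.8 CPM in WT muscle (SD, n = 4 and 5), and both passed (adjusted p = 5.07e-05 and 0.000292 in edgeR).

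Degradation and uptake genes had 5 of 7 lower (71.4%) and none higher, beside 27.2% and 27.7% of all genes. Their summed level, however, was 218 to 302 CPM in SMA libraries, which overlaps 212 to 280 CPM in WT libraries 3 to 5. WT libraries 1 and 2, which were high in bone markers, held 418 and 437 CPM. Among the 5, the proteases Mmp9, Mmp13 and Ctsk, which osteoclasts or growth plate cells make in bone, were highest in these 2 libraries. Ctsk was at 14.3, 11.4, 7.13 and 12.7 CPM in SMA and at 55.0, 53.5, 12.9, 11.9 and 12.3 CPM in WT libraries. Without WT libraries 1 and 2, Ctsk and Mmp13 did not pass (adjusted p = 0.626 and 0.201 in edgeR). Of the 8 genes of the list then tested, 3 were lower and 2 higher, beside 3711 and 3840 of all 16151 genes. The 3 lower ones were Fap, Mrc2 and Mmp9. The part of bone in the falls was not tested. Fap, a fibroblast surface protease, fell by 0.874 ± 0.088 on the log2 scale (SE, adjusted p = 8.14e-06 in edgeR). Mrc2, the receptor that takes up collagen fragments, fell by 0.621 ± 0.14 (SE, adjusted p = 0.00219 in edgeR). Collagen receptors had 4 of 12 lower, or 33.3%, which is near the 27.2% of all genes, and 2 higher. Itga1, the α1 integrin chain that binds collagen, was at 6.76, 7.40, 8.27 and 7.21 CPM in SMA, against 16.0, 23.1, 15.7, 20.5 and 22.7 CPM in WT libraries, and fell by 1.40 ± 0.14 on the log2 scale (SE, adjusted p = 5.87e-06 in edgeR). Adgrg1, an adhesion receptor for type III collagen, was at 43.3, 46.3, 37.8 and 30.1 CPM in SMA and at 18.8, 20.3, 18.9, 19.4 and 28.2 CPM in WT libraries. It rose by 0.897 ± 0.15 on the log2 scale without overlap (SE, adjusted p = 0.000286 in edgeR).

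Genes that lie next to each other on a chromosome did not always move alike. Col3a1 and Col5a2, 24.6 kb apart on opposite strands of chromosome 1, both fell, with log2 fold changes of -0.644 and -0.585. Col6a1 and Col6a2 lie 85.2 kb apart on chromosome 10, and only Col6a2 passed, although the difference between them was tested only as the count ratio given above. The scale of libraries bears on these directions. Scaling to total counts alone shifted all genes by a median of 0.23 on the log2 scale, and 74.7% of calls were then higher, against 50.4% with the trimmed mean of M values. Under it 12 collagen genes were lower and 10 higher, the median of the collagen genes was 0.101 and that of the fibrillar genes was -0.368.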

How the data were processed

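The 9 libraries were made, per the labels' protocols, from 200 ng of total RNA with an integrity number above 7 by a stranded mRNA kit and sequenced as paired reads of 75 bases. The build mm10 and the tools HTSeq 0.9.1 and DESeq2 1.16.1 are named, without a role, per the submitters' processing notes. Which aligner, annotation and strand setting were used is not given in the sources used here, so reads of overlapping genes on opposite strands may be mixed. Col4a1 and Col4a2 share 22 exon bases, Col10a1 shares 18 with Nt5dc1, and Col7a1 shares 36 with Mir711. The main deposited table gives raw, whole-number read counts. In the other deposited table the authors gave a signal: counts over a size factor of the library (0.734 to 1.23). It was used only to check the counts.

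The counts were fitted by edgeR 4.0.16 in R 4.3.3 (filterByExpr, scaling by the trimmed mean of M values, quasi-likelihood test with group as its 1 term, Benjamini-Hochberg adjustment over 15873 genes, threshold 0.05). Each SE is the absolute log2 fold change over the square root of F. CPM is relative to the scaled library size. The procedure was tested on simulated counts before use. Within groups, no 2 libraries agreed within sampling noise (chi-square per degree of freedom from 11.2 to 81.3). Precision was limited by this spread between libraries as well as by the totals of 24917665 to 35087722 counts.

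The collagen genes, lists, tests and most alternatives were chosen with earlier results of these data known. Values in every library are given by rule for the 3 members of each class with the highest mean CPM and the 2 with the lowest adjusted p, and 2 genes of each of 6 collagen pathway lists are named by lowest adjusted p. Col11a1, Col22a1, Col25a1, Mmp9, Mmp13, Ctsk and the marker genes shown by value were chosen after their values were seen. The Schwann cell marker list as a whole is not reported here. Alternatives were DESeq2 1.42.0, limma-voom (limma 3.58.1), other scalings and filters, a replicate block, sex from Y-linked counts, and leaving out libraries. Positions and exon lengths are those of GENCODE M21, and the promoter sequences are from RefSeq.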

Additional observations from a re-analysis of the deposited data

Results flagged for a closer look

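In 5 of 114 sets of values examined, 1 library lay far from the rest of its group, where chance gives about 1 in 20. For 3 of them the library was SMA library 3. Its Col3a1 level was 1130 CPM, with the other SMA libraries at 1690 to 1740 CPM. The collagen genes took 0.58% of its counts, with 0.714% to 0.74% in the other SMA libraries. Its Col10a1 level was 0.531 CPM, with 0.337 to 0.346 CPM in the others, a level set by few counts. In WT library 5 the Col26a1 level was 11.4 CPM, with 17.6 to 19.8 CPM in the other WT libraries, and the Col6a3 to Col6a1 ratio was 0.816, with 0.616 to 0.661 in the others. Without WT library 5 and SMA library 3, 17 collagen genes were lower and 9 higher.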

How the results depend on the processing

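Over 19 alternatives no collagen gene that passed, with or without the change, reversed its direction, 31 of 42 kept their side of the threshold under all of them, and 17 of the 25 called genes kept the call under all. With DESeq2, limma-voom, median-of-ratios scaling and both other count filters, 17 collagen genes were lower and 8 higher, as in the edgeR fit. With sex as a covariate 13 were lower and 7 higher, and Col4a1, Col5a1, Col16a1, Col8a2 and Col9a2 lost the call (adjusted p = 0.0618 to 0.196). Their log2 fold changes were then -0.209, -0.469, -0.818, -1.16 and 0.883, with larger SEs for each. Total-count scaling ended the calls of Col4a1, Col5a1, Col5a2, Col6a3 and Col16a1, and Col4a6 and Col18a1 passed (adjusted p = 0.0335 and 0.0166). Without WT libraries 1 and 2, Col2a1, Col4a1, Col5a1, Col6a3 and Col16a1 lost the call. Leaving out 1 library gave 15 to 18 lower and 8 or 9 higher, and 7655 to 9083 of all genes.

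Replicate numbers did not pair the samples: libraries with the same number had deviations correlated at 0.12, 0.047, -0.08 and 0.1. With the replicate block 17 collagen genes were lower and 8 higher, and 7879 of all genes passed, beside 8712 without it. Col4a1 was lost (adjusted p = 0.0584 in edgeR) and Col6a1 passed (adjusted p = 0.0421). Only WT had a library numbered 5, so WT library 5 did not bear on the group difference in that fit. The log2 fold change of Col6a1 was -0.369 with the block and -0.365 without WT library 5.

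The collagen share of counts, -0.255 percentage points SMA minus WT, was -0.393 points without the 10 most abundant genes in the total, and from -0.342 (without WT library 5) to -0.174 (without WT library 2) when 1 library was left out. Depth limits Col6a4, with 22 counts over the SMA and 14 over the WT libraries.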
